A study of Sus scrofa with 20 samples.

Results

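miR-142 is a microRNA made in blood cells, and its hairpin gives a mature strand from each arm, miR-142-5p and miR-142-3p. The rows were chosen by name. They are hsa-miR-142-5p and hsa-miR-142-3p in the table counted against human miRNA names (2 of 608 rows) and ssc-miR-142-5p and ssc-miR-142-3p, the rows whose names start with ssc-miR-142, in the table counted against pig miRNA names (2 of 284 rows), so that 4 of 892 rows in all describe the 2 arms of 1 hairpin. All 4 had enough reads to be tested.

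The study sequenced small RNA from peripheral blood mononuclear cells (PBMC), the lymphocytes and monocytes that density gradient centrifugation separates from whole blood, of American Yorkshire female pigs aged 80 to 90 days and weighing 36 to 41 kg. The 10 Control libraries come from blood drawn before intracerebral hemorrhage (ICH) and the 10 ICH libraries from blood drawn 6 h after it. ICH, bleeding into brain tissue, was modelled by injecting 2 to 4 mL of the animal's own blood, under controlled pressure, through a burr hole into the frontal white matter. The libraries carry the replicate numbers 1 to 10 in each group, and the series' design text describes a draw before and a draw after the injection, so they were compared within numbers. Sham surgery was not analysed here, and the injected blood, the surgery and the passing hours cannot be told apart.

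A miRNA gene is transcribed into a hairpin, which is cut to a short duplex. Either strand of that duplex can be loaded into an Argonaute protein, which it guides to messenger RNAs that pair with its seed, and the arms of a hairpin have different seeds and so different targets. miR-142 is transcribed across the blood lineages and is among the most abundant miRNAs of white cells. In mice its loss disturbs the development of lymphocytes, platelet-forming megakaryocytes and other blood cells. These libraries hold whole PBMC and no sorted cell types, so its spread over the cell types was not measured, and a change in a level can reflect either the number of cells that hold the miRNA or the amount per cell, which cannot be told apart here.

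In the pig genome build Sscrofa11.1, the RefSeq gene table places MIR142 on chromosome 12 from 34609378 to 34609457, a hairpin gene of 80 bp. It overlaps 0 other genes in that table. TSPOAP1, a protein-coding gene, ends 2754 bp before it, and SUPT4H1, which encodes a transcription elongation factor subunit, starts 13317 bp after it. The nearest other miRNA gene is MIR21, 1455810 bp away, so MIR142 has no close miRNA neighbour that could be read as part of the same cluster.

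Each library gave between 919313 and 2177834 reads assigned to human miRNA names and between 896960 and 2103685 assigned to pig names. miR-142 was read deeply in every library, with 8187 to 54182 reads of the 5p arm and 2096 to 9636 of the 3p arm against the human names. The tables of both references count largely the same reads: the 3p counts differed by at most 1 read between them in any library, and the 5p count was higher against the human name by 34 to 435 reads. The pig and human results are thus a pair of views of the same molecules and not independent of each other.

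miR-142-5p was the 13th most abundant of the 608 human-reference rows by mean share of reads, at 1.484% ± 0.381 (SD, n = 20 libraries). Its neighbours in that order were miR-26b-5p at 1.608% ± 0.330 and miR-20a-5p at 1.388% ± 0.344. Neither neighbour stood apart from it, since miR-142-5p had more reads than miR-26b-5p in 6 of 20 libraries and more than miR-20a-5p in 11 of 20. Within single libraries its rank ran from 8 to 15 in Control and from 12 to 20 in ICH.

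miR-142-3p, the arm with fewer reads, was 34th of the 608 rows at 0.3275% ± 0.0891 (SD, n = 20 libraries). The number of reads per molecule was not measured, so these ranks and the arm ratios below are of reads. It lay between miR-340-5p at 0.3277% ± 0.0471 and miR-17-5p at 0.3269% ± 0.0858, and had more reads than these in 7 and 9 of 20 libraries. These 3 levels did not differ beyond their spread. Among the 284 pig-reference rows the 5p arm was 12th at 1.521% ± 0.396 and the 3p arm 33rd at 0.3378% ± 0.0934.

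As a share of all human-reference reads, miR-142-5p ran from 1.206% to 2.492% in Control with a median of 1.555%, and from 0.8906% to 1.760% in ICH with a median of 1.251%. The highest Control library, number 6, stood above all the others, and the lowest ICH library was number 1. The share was lower after ICH in 9 of the 10 numbers, and in number 4 it was 1.20-fold higher. Both arms together took 2.03% ± 0.434 of reads before ICH and 1.592% ± 0.352 after it (SD, n = 10 libraries each).

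Shares add up to a fixed total, so a miRNA that takes more of it lowers the shares of the others. miR-21-5p, a miRNA of activated immune and many other cells and the most read of the leukocyte-wide list below, took 12.8% ± 2.88 of human-reference reads before ICH and 17.46% ± 2.35 after it (SD, n = 10 libraries each). The levels below are therefore in CPM, counts relative to a library size scaled with TMM, a method that chooses the scaling so that most miRNAs keep their level. They were tested with the edgeR quasi-likelihood test with the replicate number as a block, and adjusted by Benjamini-Hochberg over all miRNAs tested in the table, with 0.05 as the threshold.

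On the pig reference, ssc-miR-142-5p ran from 12074 to 26529 CPM in Control with a median of 15260, and from 8302.4 to 18699 CPM in ICH with a median of 13140. The groups overlapped over most of their range. The mean was 16860 ± 4033 CPM before ICH and 13550 ± 3151 after it (SD, n = 10 libraries each). Within numbers miR-142-5p fell after ICH, with a log2 fold change of -0.32 ± 0.100 (SE; 0.801-fold, adjusted p = 0.0264 by edgeR), and was lower in 8 of the 10 numbers. In that fit 21.8% of 179 miRNAs passed the threshold, 10.1% as lower after ICH and 11.7% as higher, so such a call was common in this table.

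The call depended on the pairing. Without the block the log2 fold change was -0.32 and the adjusted p was 0.231, and 0 of 179 pig-reference miRNAs passed the edgeR test, although 35 had an unadjusted p below 0.05. It was also lost under upper-quartile scaling (log2 fold change -0.20, adjusted p = 0.166), without the filter on low counts (-0.28, adjusted p = 0.0585), and when number 1, 2, 6, 7, 9 or 10 was left out (adjusted p between 0.0542 and 0.0928).

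Against the human name, hsa-miR-142-5p ran from 11990 to 24433 CPM in Control with a median of 14720, and from 8655.9 to 17326 CPM in ICH with a median of 13290. The largest drop in CPM was in number 6, from 24433 to 15652 CPM, a log2 change of -0.64, after the highest Control level of all. Number 1 went from 13794 to 8655.9 CPM, a log2 change of -0.67. Numbers 4 and 5 were higher after ICH, by 0.215 and 0.105 on the log2 scale.

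The mean human-reference level of miR-142-5p was 16060 ± 3664 CPM before ICH and 13460 ± 2707 after it (SD, n = 10 libraries each). Its log2 fold change was -0.25 ± 0.0957 (SE; 0.839-fold), lower in 8 of 10 numbers, and the adjusted p of 0.0617 by edgeR missed the threshold. It passed with 7 of 9 other scalings, filters or tests (adjusted p between 0.00568 and 0.0449), but not with limma voom (adjusted p = 0.0592) or without the block (adjusted p = 0.296). Of the 245 human-reference miRNAs tested, 6.12% passed as lower and 13.1% as higher, and without the block 3.67% passed, 0.816% as lower and 2.86% as higher. The median log2 fold change over all miRNAs tested was -0.04 on the pig reference and 0.03 on the human reference. Measured from those medians, miR-142-5p stood at -0.28 on both.

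**Figure D1:**
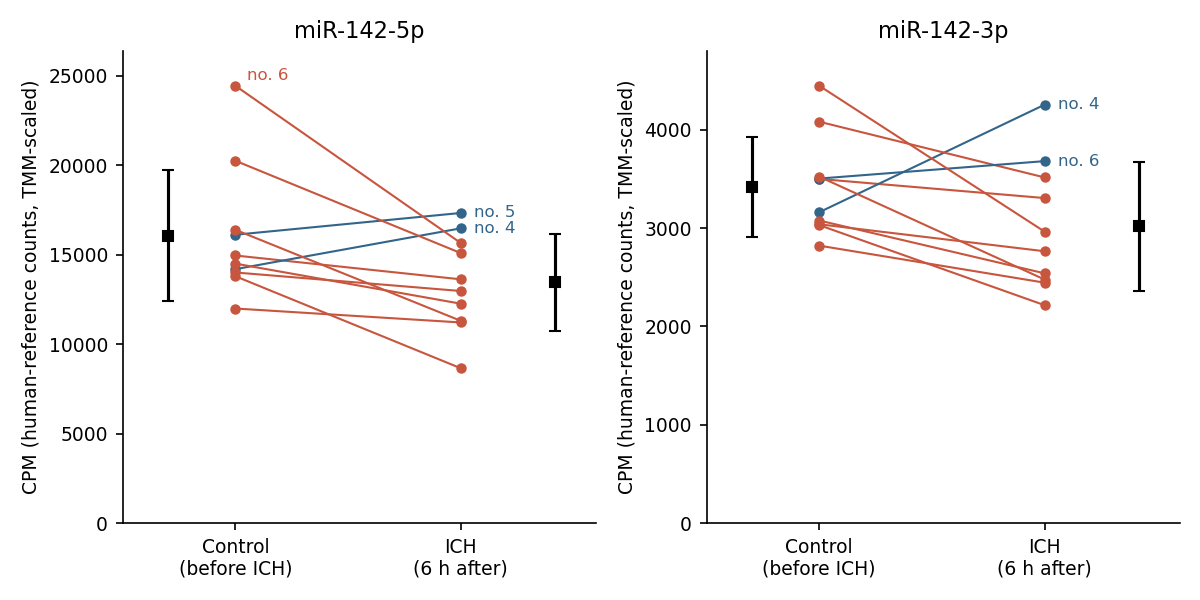
Levels of miR-142-5p (left) and miR-142-3p (right) against human names, in TMM-scaled CPM on linear axes that start at 0. Each line joins the Control and ICH libraries of one replicate number, red where the level was lower after ICH and blue where it was higher, and black squares with bars are the mean ± SD of 10 libraries. The 5p arm was lower in 8 of 10 numbers, with number 6 the highest Control library at 24433 CPM, and the 3p arm was lower in all numbers but 4 and 6.

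For hsa-miR-142-3p, levels ran from 2821.5 to 4447.1 CPM in Control with a median of 3330, and from 2216.1 to 4254.4 CPM in ICH with a median of 2864. Most ICH libraries lay in the lower part of the Control range or under it, and the highest, number 4, lay near its top. The mean was 3418 ± 512 CPM before ICH and 3016 ± 655 after it (SD, n = 10 libraries each). The log2 fold change was -0.20 ± 0.0952 (SE; 0.873-fold) and did not pass the edgeR test (adjusted p = 0.161), with lower levels in 8 of 10 numbers.

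Number 4 was the one number in which both arms were higher after ICH against the human names. Its 3p level went from 3160.9 to 4254.4 CPM, a log2 change of 0.428, and its 5p level from 14187 to 16468 CPM. With number 4 left out, the 3p log2 fold change was -0.31 (adjusted p = 0.00734 by edgeR) and the 5p value -0.35 (adjusted p = 0.00508). No other number, left out alone, brought the human-reference 3p arm past the threshold.

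ssc-miR-142-3p, whose counts match the human-reference row to within 1 read, averaged 3616 ± 638 CPM before ICH and 3060 ± 779 after it (SD, n = 10 libraries each). Its log2 fold change of -0.26 ± 0.0988 (SE; 0.833-fold) had an adjusted p of 0.0594 by edgeR and was lower in 9 of 10 numbers. Measured from the median of all miRNAs, the 3p arm stood at -0.22 on both references. With the TMM scaling used here and all 10 numbers, the 3p arm passed on neither reference. It passed on the human reference with upper-quartile scaling (log2 fold change -0.31, adjusted p = 0.044 by edgeR). On the pig reference the same scaling gave a smaller fold change that did not pass (-0.15, adjusted p = 0.341 by edgeR).

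**Figure D2:**
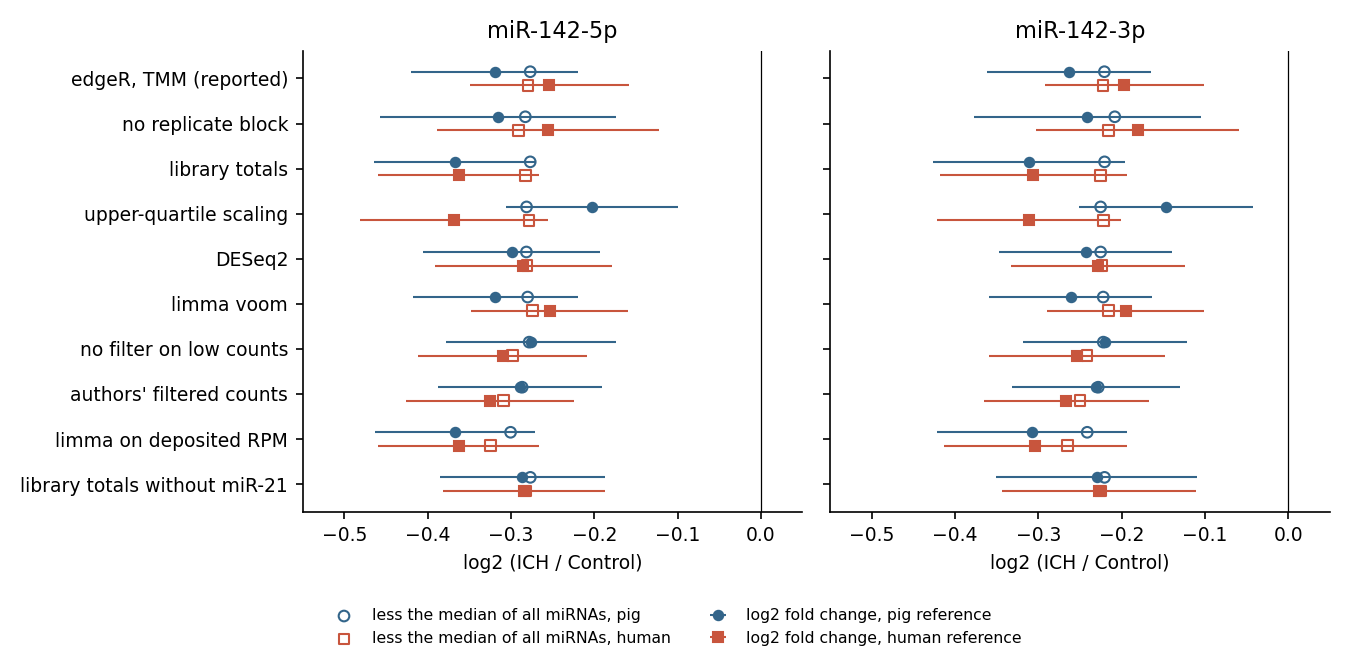
Log2 fold change after ICH of miR-142-5p (left) and miR-142-3p (right) under 10 ways of scaling and testing. Filled symbols with bars are the fold change ± SE on the pig (blue circles) and human (red squares) references, and open symbols are the same value less the median of all miRNAs tested in that fit. The open symbols lie between -0.32 and -0.27 for the 5p arm and between -0.26 and -0.21 for the 3p arm. Subtracting the median takes out most of a change of scaling by construction.

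Across the 10 settings in the plot of fold changes by method, the scaling moved the level of the whole table. The median of all pig-reference miRNAs ran from -0.09 with library totals to 0.08 with upper-quartile scaling. Less that median, the 5p arm kept between -0.30 and -0.28 on the pig reference and between -0.32 and -0.27 on the human reference. For the 3p arm these ranges were -0.24 to -0.21 and -0.26 to -0.22. A change of scaling shifts all miRNAs of a table by nearly the same amount. Subtracting the median takes it out by construction, so the narrow ranges are no separate support for a fall.

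Whether the arms changed apart from each other was asked with the ratio of the 5p count to the 3p count inside each library, which needs no scaling between libraries. The 5p arm made up 77.2% to 87.5% of miR-142 reads. The lowest share was 77.23% in ICH number 3 (95% Wilson interval 76.64% to 77.81%) and the highest 87.46% in Control number 6 (87.20% to 87.72%), intervals that cover counting error only. The spread between libraries was thus far wider than the counting error.

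The ratio ran from 3.426 to 6.974 in Control with a median of 4.551, and from 3.392 to 6.091 in ICH with a median of 4.589. The groups overlapped almost throughout. The mean log2 ratio was 2.22 ± 0.304 before ICH and 2.16 ± 0.258 after it (SD, n = 10 libraries each), a difference of -0.058 ± 0.0889 (SE; 0.961-fold). It was higher after ICH in 5 numbers and lower in 5 (exact sign-flip permutation test within numbers, both tails, p = 0.611, and 0.611 adjusted over 7 ratios).

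The largest single change was in number 6, where the ratio went from 6.974 to 4.252, and the largest in the other direction was in number 5, from 3.947 to 4.929. In number 6 the 5p level dropped while the 3p level was slightly higher, 3503.4 CPM before and 3680.6 CPM after. Without number 6 the mean difference turned to 0.02 (adjusted p = 0.781, exact sign-flip permutation test). With all 10 numbers, the limma 95% interval of the difference ran from -0.31 to 0.195 on the log2 scale, which includes shifts of either sign.

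**Figure D3:**
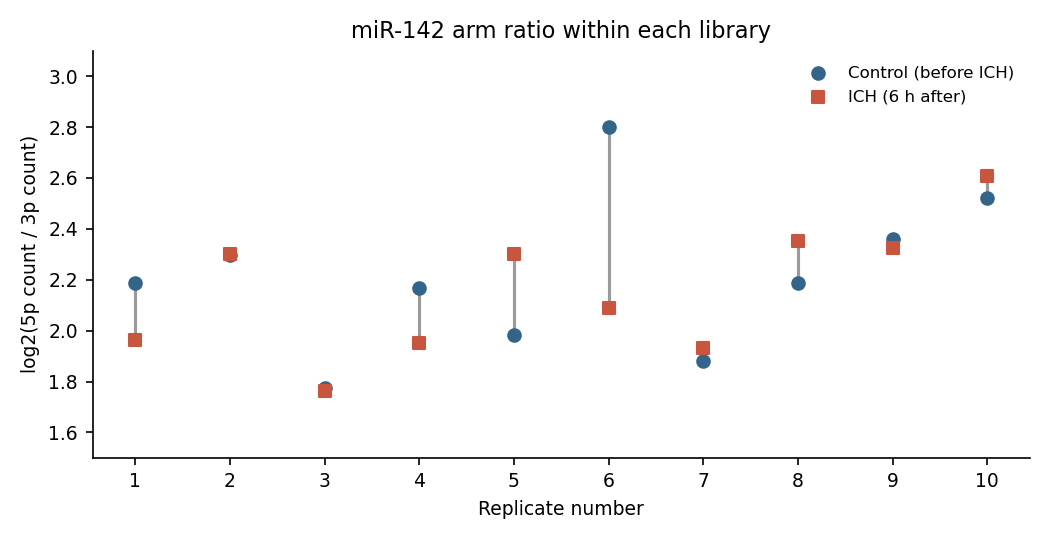
Log2 ratio of miR-142-5p to miR-142-3p counts in the Control (blue circles) and ICH (red squares) library of each replicate number, on an axis that does not start at 0. Grey lines join the libraries of a number. The ratio was higher after ICH in 5 numbers and lower in 5, and number 6 changed the most, by -0.71.

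Among the 57 hairpins with both arms tested, the limma test of paired differences called 1, or 1.75%, as shifted between the arms after ICH, and 0 as shifted away from the 5p arm. miR-142 was not called (adjusted p = 0.985). The called hairpin was miR-27a, a myeloid-list hairpin, whose ratio moved towards the 5p arm by 0.68 ± 0.138 (SE; adjusted p = 0.0122).

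Of the 18 hairpins with both arms at 100 CPM or more, miR-142 stood at rank 1 by the CPM of the scarcer arm. By the sum of both arms it stood at rank 2. Mean log2 arm ratios of the 18 ran from -6.29 to 7.36, and 10 of them had more 5p than 3p reads. Next above miR-142, at 2.19 over all libraries, came miR-425 at 2.46, let-7d at 2.95 and miR-30e at 3.22, and next below came miR-106b at 2.13, miR-15b at 2.02 and miR-361 at 0.446. Its shift varied between numbers with an SD of 0.281, smaller than in all but 3 of the 18, whose SDs ran from 0.178 to 0.800 with a median of 0.413.

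**Figure D4:**
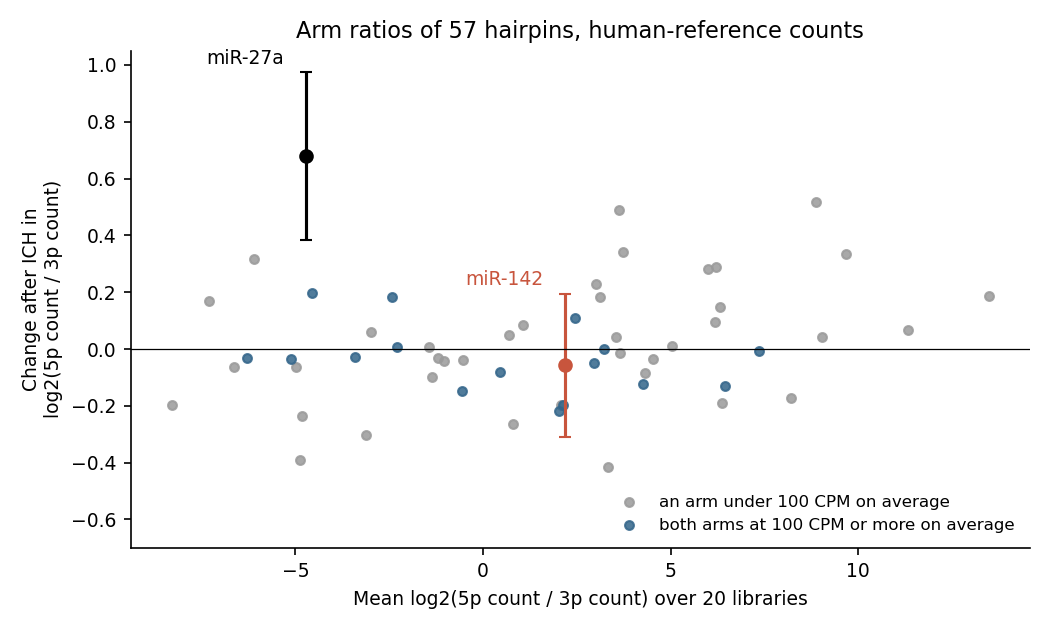
Change after ICH in the log2 ratio of 5p to 3p counts against the mean log2 ratio over 20 libraries, for 57 hairpins, with the limma 95% interval drawn for miR-142 (red) and for miR-27a (black), the hairpin that passed the test. Blue points have both arms at 100 CPM or more and grey points do not. miR-142 lies at -0.06 with an interval that spans 0, and miR-27a at 0.68.

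Set against miRNAs that mark single lineages, miR-142 was lower after ICH relative to a myeloid and a red cell miRNA, and no difference passed the test relative to a lymphocyte miRNA. Each ratio was taken within a library and tested with the exact sign-flip permutation test, both tails, with p-values adjusted over the 7 ratios. miR-223-3p is a miRNA of granulocytes and monocytes, miR-150-5p one of mature lymphocytes, and miR-451a one of red cells. They are members of the lists below, which were chosen with earlier results of these data known. A ratio moves with either of its miRNAs, so its p-value is no test of miR-142 alone.

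The ratio of miR-142-3p to miR-223-3p ran from 1.02 to 2.38 on the log2 scale in Control and from 0.238 to 1.0 in ICH. The groups did not overlap. The mean went from 1.52 ± 0.377 to 0.691 ± 0.212 (SD, n = 10 libraries each) and fell by 0.83 ± 0.129 (SE; 0.563-fold), in 10 of 10 numbers (exact permutation p = 0.00195, the smallest this design can give, adjusted p = 0.0137). For miR-142-5p the log2 ratio went from 3.74 ± 0.494 to 2.85 ± 0.390 and fell by 0.89 ± 0.190 (SE; 0.541-fold), lower in all numbers but 5 (exact permutation p = 0.00586, adjusted p = 0.0137). miR-223-3p itself rose after ICH, from a mean of 1228 to 1886 CPM (log2 fold change 0.63 ± 0.154 SE, adjusted p = 0.00856 by edgeR), a larger change than the -0.25 and -0.20 of the miR-142 arms.

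Against miR-150-5p the miR-142 arms did not show a difference past the threshold. The 5p to miR-150-5p log2 ratio was 0.575 ± 0.307 before ICH and 0.704 ± 0.353 after it (SD, n = 10 libraries each), a difference of 0.13 ± 0.126 (SE; 6 of 10 numbers higher, exact permutation p = 0.344, adjusted p = 0.401). The 3p ratio went from -1.64 ± 0.281 to -1.46 ± 0.171, a difference of 0.19 ± 0.0926 (SE; 8 of 10 higher, exact permutation p = 0.0762, adjusted p = 0.107). miR-150-5p itself fell (log2 fold change -0.38 ± 0.101 SE, adjusted p = 0.00898 by edgeR), from a mean of 10770 to 8346 CPM.

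Against miR-451a the ratios of both arms fell. miR-451a itself did not pass the test (log2 fold change 0.64 ± 0.278 SE, adjusted p = 0.14 by edgeR, higher in 7 of 10 numbers). Its estimate was larger in size than the -0.25 and -0.20 of the miR-142 arms. The 5p log2 ratio ran from 4.79 to 8.20 in Control and from 4.13 to 6.20 in ICH, and fell by 0.96 ± 0.274 (SE; 9 of 10 numbers lower, exact permutation p = 0.00391, adjusted p = 0.0137). The 3p log2 ratio fell by 0.90 ± 0.268 (SE; 8 of 10 lower, exact permutation p = 0.00781, adjusted p = 0.0137). The latter call was lost without the pairing (adjusted p = 0.0636, permutation test between groups). The spread of the 5p ratio was wider in Control (SD 1.01) than in ICH (SD 0.568). Number 4 changed the most, by -2.99 for the 5p and -2.77 for the 3p ratio on the log2 scale. The summed level of the red cell miRNAs ran from 110.9 to 812.8 CPM in Control and from 429.3 to 1334 CPM in ICH, and its part in the miR-142 results was not tested.

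**Figure D5:**
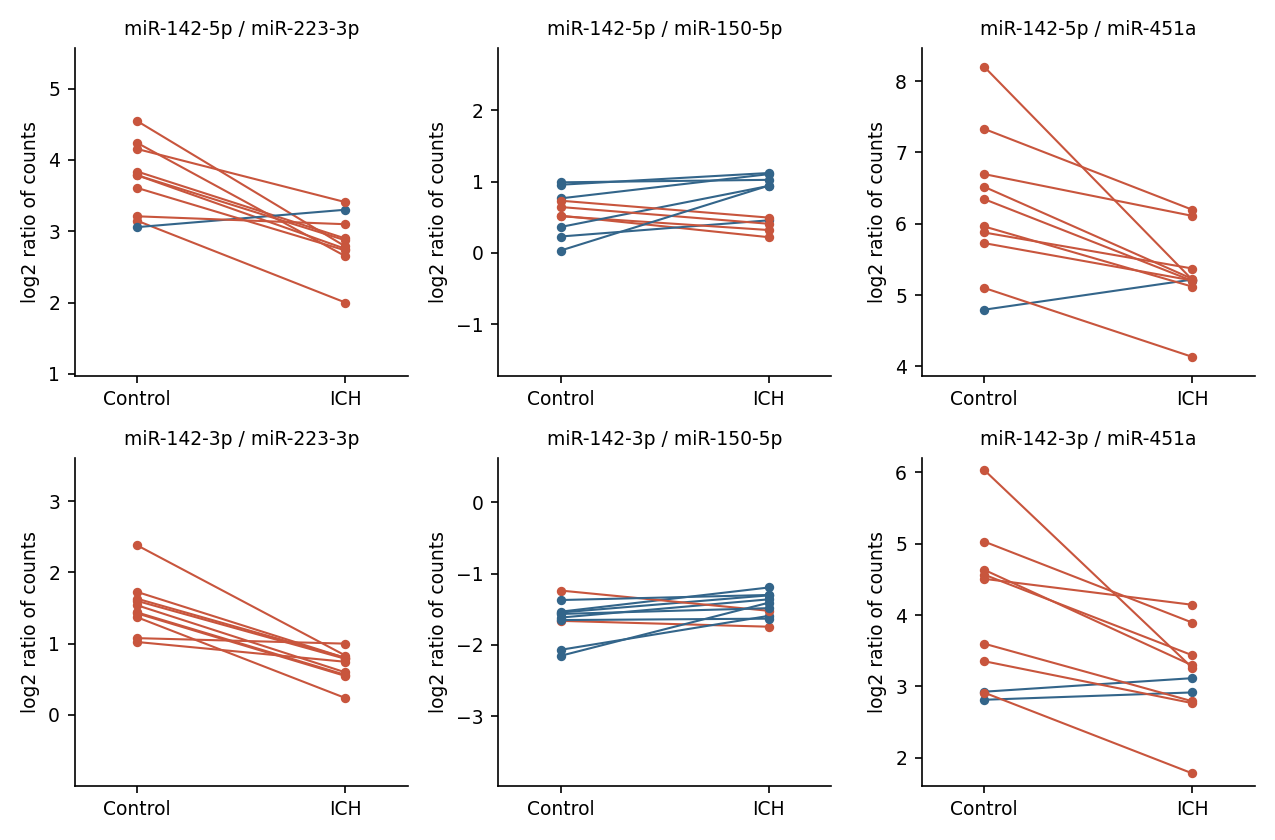
Log2 ratio of miR-142-5p (top row) and miR-142-3p (bottom row) counts to miR-223-3p (myeloid), miR-150-5p (lymphocyte) and miR-451a (red cell) counts in Control and ICH libraries; axes do not start at 0. Each line joins one replicate number, red where the ratio was lower after ICH and blue where it was higher. Against miR-223-3p the 3p ratio was lower in 10 of 10 numbers, and against miR-150-5p the ratios of both arms overlap between the groups.

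miR-142 belongs to a list of leukocyte-wide miRNAs, 10 of which were tested on the human reference, the miR-142 arms among them. Of these 1 rose and 0 fell, where 19.2% of all 245 human-reference miRNAs passed in either direction, and the median log2 fold change was -0.05 against 0.03 over all. On the pig reference 8 of the list were tested, of which 1 fell, ssc-miR-142-5p, and 1 rose, ssc-miR-21, where 10.1% of all fell and 11.7% rose. Without the block 0 of the 8 passed there, as did 0 of all 179. The one that rose on the human reference was miR-21-5p (log2 fold change 0.58 ± 0.0935 SE, adjusted p = 0.000153 by edgeR). Of those that did not pass, miR-155-5p, induced in activated lymphocytes and macrophages, stood at 0.20 (adjusted p = 0.14) and miR-146a-5p, a brake on innate immune signalling, at -0.15 (adjusted p = 0.327). miR-26a-5p, the list's next most abundant member at 71310 CPM in Control, stood at -0.11 (adjusted p = 0.464). miR-16-5p stood at -0.21 (adjusted p = 0.14), close to the miR-142 arms. On the pig reference ssc-miR-16 stood at -0.27 (adjusted p = 0.0555 by edgeR) and was lower in 10 of 10 numbers.

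Lists named for lineages were set beside it, and whether their members are confined to those lineages was not measured. On the human reference the lymphocyte calls were all falls, while 6 of 9 myeloid members did not pass. These lists, like the leukocyte-wide one, were chosen with earlier results of these data known, so their counts only describe. Of 11 lymphocyte miRNAs tested on the human reference, 5 fell and 0 rose, with a median log2 fold change of -0.33, where 6.12% of all 245 miRNAs fell. Those that fell were miR-150-5p, miR-181a-5p (-0.32, adjusted p = 0.00856 by edgeR), miR-29a-3p (-0.42, adjusted p = 0.00209), miR-29b-3p (-0.37, adjusted p = 0.0496) and miR-31-5p (-0.61, adjusted p = 0.0089). Without the block 0 of these 5 passed (adjusted p between 0.0511 and 0.27), where 0.816% of all 245 fell. On the pig reference 6 of 7 lymphocyte miRNAs fell, with a median of -0.43, where 10.1% of all 179 fell. Without the block 0 of the list fell there, as did 0 of all 179.

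Of 9 myeloid miRNAs 3 rose and 0 fell, with a median of 0.19, where 13.1% of all 245 rose. They were both arms of miR-223 and miR-27a-5p, and the 3 also passed without the block, where 2.86% of all 245 rose. Members with more reads did not pass the edgeR test. These were miR-24-3p (0.11, adjusted p = 0.393), miR-27a-3p (0.04, adjusted p = 0.819), miR-22-3p (0.22, adjusted p = 0.0624) and miR-23a-3p (-0.04, adjusted p = 0.82). On the pig reference 0 of 6 myeloid miRNAs rose and 0 fell, where 11.7% of all 179 rose and 10.1% fell. Their median was 0.07, and miR-223 was not among the rows tested there. The summed lymphocyte level was 27250 to 37600 CPM in Control and 21560 to 34860 in ICH, and the summed myeloid level 19410 to 22470 and 22280 to 25190. The estimates of both miR-142 arms, -0.25 and -0.20, lay between the medians of these lists, and the part of a change in cell makeup in them was not tested.

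Of 4 red cell miRNAs 2 rose, against the same 13.1% of all miRNAs, with a median of 0.57. They were miR-486-5p (0.63, adjusted p = 0.00107 by edgeR) and miR-144-3p (0.47, adjusted p = 0.0212). Without the block 0 of the 4 passed, where 2.86% of all 245 rose. Of 5 platelet and vessel wall miRNAs 1 rose, miR-126-3p (0.56, adjusted p = 0.000415), a share near that of all miRNAs, and the list's median was 0.08. On the pig reference 1 of 3 red cell and 1 of 5 platelet and vessel wall miRNAs rose, where 11.7% of all 179 did. Without the block 0 of either list rose there, as did 0 of all 179. The summed platelet and vessel wall level was 40500 to 58150 CPM in Control and 43540 to 57460 in ICH, ranges that overlapped almost wholly, and no list's sum was at 0 in any library.

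By likeness of level over the 20 libraries, miR-142-5p was nearest to miR-374a-5p (Pearson r of log2 CPM 0.829, Spearman rho 0.771) and miR-29b-3p (r 0.826, rho 0.788), followed by miR-203a-3p (r 0.702), miR-29a-3p (r 0.699) and miR-106b-5p (r 0.685). miR-142-3p was nearest to miR-30b-5p (r 0.9, rho 0.862), followed by miR-29a-3p (r 0.828), miR-339-5p (r 0.817), miR-29b-3p (r 0.791) and miR-15b-5p (r 0.79). These were the highest of 129 miRNAs that averaged 100 CPM or more. The libraries share animals, groups and scaling factors, so the values only describe. Between the arms themselves r was 0.579 (rho 0.668). By r this was lower than for the 5 miRNAs named beside either arm, which were picked for the highest r. By rho it was higher than for miR-203a-3p (0.525), miR-29a-3p (0.629) and miR-106b-5p (0.605) beside miR-142-5p. Placed by r among the 129, the 3p arm would stand 14th beside miR-142-5p, and the 5p arm 23rd beside miR-142-3p.

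Within groups, the arms' levels over the 10 numbers gave r = 0.319 in Control (permutation p = 0.373, rho 0.576) and r = 0.642 in ICH (permutation p = 0.0444, 0.169 adjusted over 4 relations, rho 0.624). Without the 2 libraries farthest from the median 5p level these were 0.485 and 0.424. The changes of the arms within numbers gave r = 0.567 (permutation p = 0.0845, 0.169 adjusted, rho 0.467), and r = 0.863 without numbers 1 and 6. None of these relations passed after adjustment.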

How the data were processed

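Small RNA libraries were made with the NEBNext kit from 500 ng of RNA, per the labels' protocols. The authors used bcl2fastq, FastQC and Bowtie with the builds Sscrofa11.1, GRCh38 and hg38, per the submitters' processing notes. Counting and filter rules were not given in the sources used here. Tests used the authors' deposited unfiltered counts, one table against 608 human and one against 284 pig miRNA names. The authors also deposited filtered counts (336 and 226 rows) and RPM values, which equal the filtered counts divided by their column total within 0.005; the filter kept 98.56% to 99.66% of miR-142 reads. The column headers name the same lane for every library, so no sequencing batch could be set against the groups.

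edgeR 4.0.16 (R 4.3.3; filterByExpr, TMM, robust quasi-likelihood fit) was run on each whole table with the replicate number as a block. DESeq2 1.42.0, limma 3.58.1, other scalings and leaving out numbers were alternatives, and the count code was tested on simulated data. Ratios had 0.5 added to each count and were tested by all 1024 sign flips. CPM in the text is TMM-scaled, and log2 CPM used a prior count of 2. The replicate numbers, from the sample titles, were used to pair the libraries. Deviations from the group means correlated between same-numbered libraries at 0.129 to 0.768 (pig) and 0.146 to 0.672 (human). These were above 0.1 in 10 of 10 numbers, against medians of -0.0646 and -0.071 between other numbers. Same-numbered libraries were each other's best match across the groups in 7 of 10 numbers on each reference, and not in the rest. No libraries of a group agreed within sampling noise (lowest chi-square per degree of freedom 20.3 for human and 25.3 for pig names). The p-values of paired tests measure only the spread of the changes within numbers, and those without the block the spread between these libraries.

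The members and lists were chosen with earlier results of these data known. Named miRNAs are all miR-142 rows, members of the 5 marker lists that passed the test, miR-21-5p and the lineage miRNAs of the ratios, the miRNAs next above and below each arm in mean share, the 5 most correlated miRNAs per arm, and the 3 hairpins above and below in arm ratio, besides any called hairpin. miR-155-5p, miR-146a-5p, miR-26a-5p, miR-16-5p, ssc-miR-16, miR-24-3p, miR-27a-3p, miR-22-3p and miR-23a-3p fall outside this rule. Their values were known when they were named. At 2096 reads or more per arm, counting error is small beside the spread between libraries. No nucleotide sequences are printed.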

Additional observations from a re-analysis of the deposited data

Results flagged for a closer look

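Values of a single library that lay far from the rest of their group were looked for in 30 groups of 10 libraries (gap to the nearest library over the group's range, above Dixon's 95% critical value). Chance gives about 1 in 20 such groups, and 2 were found. In ICH number 8 the log2 ratio of miR-142-5p to miR-451a was 4.133, with the nearest ICH library at 5.118 and the highest at 6.196. In Control number 4 the log2 ratio of miR-142-3p to miR-223-3p was 2.379, with the nearest Control library at 1.725 and the lowest at 1.023. Without number 4 the 3p to miR-223-3p ratio still fell, by 0.75 on the log2 scale.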

How the results depend on the processing

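All 4 miR-142 levels kept a negative log2 fold change in each of 19 alternatives. For miR-142-5p on the pig reference the call was lost with no replicate block (-0.3156), with upper-quartile scaling (-0.2028) and with no filter on low counts (-0.2758), and leaving out one number gave -0.3586 to -0.2343, past the threshold in 4 of 10. On the human reference, where the 5p arm had missed the threshold, it passed with library totals (-0.363), upper-quartile scaling (-0.3681), DESeq2 (-0.2852), no filter (-0.3101), the authors' filtered counts (-0.3255), limma on deposited RPM (-0.363) and totals without miR-21 (-0.284), and leaving out one number gave -0.3541 to -0.2202. The human 3p arm passed with upper-quartile scaling (-0.3112), and leaving out one number gave -0.3138 to -0.1512. For the pig 3p arm, whose alternatives were added after seeing the data, that range was -0.2921 to -0.1957. Upper-quartile scaling gave -0.1466 there and did not pass. With no replicate block no miR-142 level passed: adjusted p was 0.231 and 0.322 for 5p and 3p on the pig reference, and 0.296 and 0.443 on the human reference; 0 arm ratios of hairpins were called, and the 3p to miR-451a ratio (-0.8984) missed the threshold. The marker list counts were added after seeing the data. Without the block those of fallen lymphocyte miRNAs went from 5 of 11 to 0 (human) and from 6 of 7 to 0 (pig). Those of risen red cell miRNAs went from 2 of 4 and 1 of 3 to 0. The pig leukocyte-wide counts, 1 risen and 1 fallen of 8, and the pig platelet and vessel wall count, 1 risen of 5, also went to 0. Over all miRNAs 9 in place of 47 passed on the human reference and 0 in place of 39 on the pig reference. The calls of the other lineage ratios did not change.

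Leaving out one number gave -0.09961 to 0.0153 for the arm ratio, where leaving out number 6 turned its sign (0.0153, also in the fit of all hairpins). The lineage ratios ran from -1.012 to -0.7898 (5p to miR-223-3p), 0.04176 to 0.1765 (5p to miR-150-5p), -1.109 to -0.7303 (5p to miR-451a), -0.9128 to -0.7495 (3p to miR-223-3p), 0.1242 to 0.2385 (3p to miR-150-5p, past the threshold without number 7) and -1.019 to -0.6901 (3p to miR-451a), and 1 to 2 hairpins were called. The cause of these changes was not tested.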

Other observations

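The arm ratio of a number's ICH library was set against that of its Control library, a relation chosen after the values were seen. Over the 10 numbers r was 0.509 (permutation p = 0.133, 0.177 adjusted over 4 relations) and rho 0.612 (permutation p = 0.0666, 0.119 adjusted). Without numbers 3 and 6 r was 0.679. Number 3 had the lowest ratio in both groups (3.426 and 3.392), and number 10 had the highest in ICH (6.091) and the next to highest in Control (5.746).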
